A study of Ovis aries with 40 samples.

Results

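Gene expression in the longissimus muscle of Texel fetuses was compared between 100 and 120 d of gestation on 7 of the 40 arrays of the series, which were chosen by their labels for breed and stage. Texel is a heavily muscled breed that carries a natural double-muscling mutation, and every Texel fetus here comes from that purebred stock. The 100 d group (T100) held 4 fetuses, 3 females and 1 male, and the 120 d group (T120) held 3 males. Fetuses of the Ujumqin breed, indigenous to China, with less muscle and more fat, gave the same interval as a comparison: 3 at 100 d (U100, 1 female and 2 males) and 3 at 120 d (U120, all females). RNA of each fetus was labelled with Cy3 and hybridised to its own 1-colour Agilent sheep array of 15208 spots, which stand for 15008 different probes.

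Only 3 pregnant ewes are given by the methods for each group, fewer than the 4 fetuses of T100. A ewe may thus have carried more than 1 of them. The p-values rest on the spread between fetuses within all 5 Texel stages (16 arrays), not on the 7 compared arrays alone. Stage was bound up with sex and partly with slide. T100 replicate 1 lay on slide 2, T100 replicates 2 to 4 and T120 replicate 1 lay on slide 3, and T120 replicates 2 and 3 lay on slide 4. The median processed signal of the 7 arrays ran from 298.1 (T120 replicate 2) to 484 (T100 replicate 3), and 85.6% to 90.7% of their spots were well above background. The small number of arrays limits the precision of every estimate.

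Skeletal muscle fibres form when dividing myoblasts leave the cell cycle and fuse, and the fibres then replace embryonic and perinatal contractile proteins by adult slow and fast forms. The myosin heavy chains mark these types, with MYH7 in slow fibres and MYH2 and MYH1 in fast ones. Towards term the fetal circulation carries more cortisol and thyroid hormone, and the muscle builds up the enzymes that burn glucose and fat.

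The label of skeletal muscle was met by its markers. Of 16 listed markers, 6 had a tested probe (MYH1, MYH2, MYH7, the fast troponin C TNNC2, the oxygen store myoglobin MB and the calcium store protein CASQ1), and all 6 were well above background on all 7 arrays, TNNC2 brightest. Their summed normalized signal was 525810, 595183, 543620 and 574477 in the T100 replicates and 695628, 721413 and 679320 in those of T120, so each T120 sum exceeded each T100 sum. TNNC2 is at the top of the scale on every array, and nearly all of the gain in the sum came from the MYH1 probe A_70_P050846.

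From 100 to 120 d the genes that rose in Texel muscle included some of adult fast and slow fibres, of glycolysis and of hormone reception, and those that fell included 3 of cell division and the myoblast factor MYF5. In all, 527 of 14385 tested probes (3.66%) changed at least 2-fold with a limma adjusted p under 0.05. They divided into 278 that were higher at 120 d (1.93%) and 249 that were lower (1.73%). The values of the 4 T100 and 3 T120 arrays did not overlap for 2809 probes (19.5%), among them 497 of the 527. Changes of 4-fold or more were counted for 62 of the higher and 36 of the lower probes, while the median log2 difference over all tested probes was -0.04. Of the 527, 39 were not well above background on any array of T100 or on any of T120, so that their fold is a bound at best. A gene name could be given to 1773 tested probes and to 167 of those that changed, 104 higher and 63 lower, which stood for 76 and 52 genes. Among 56 genes with 2 or more tested probes and at least 1 change, 32 had every probe changed in 1 direction, and 0 had probes changed in both directions by the same limma test.

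These counts lean on the model and on single arrays. With slide as a fixed block 31 probes passed, with the 7 compared arrays alone 62, with sex as a covariate 316 and without T120 replicate 1 1394.

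**Figure D1:**
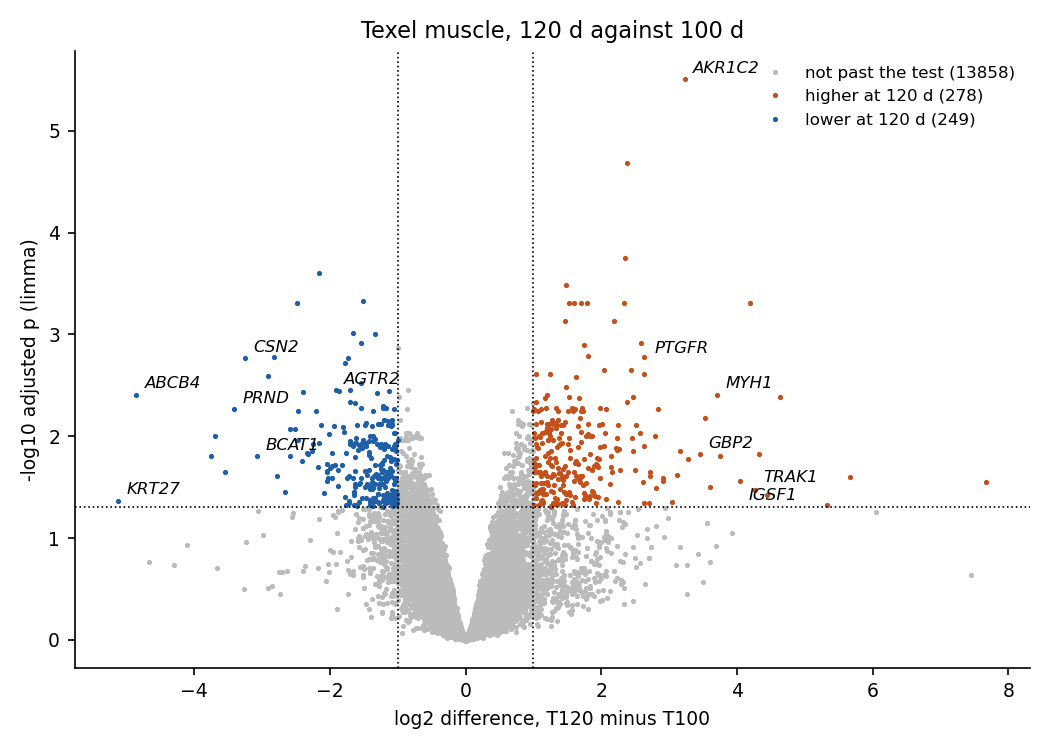
Log2 difference between T120 and T100 on the x axis against the negative log10 of limma's adjusted p on the y axis, 1 point per tested probe, with dotted lines at 2-fold and at an adjusted p of 0.05. The 278 probes higher at 120 d are orange and the 249 lower ones blue. AKR1C2 has the lowest limma adjusted p (3.07e-06), on a probe not well above background on any T100 array.

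The 3 T120 arrays did not stand equally far from T100. Over the 2492 probes that changed between T85 and T135, the Texel groups before and after the interval, a set taken without the 100 and 120 d arrays but after the data had been seen, each array was placed on the path from the T85 mean (at 0%) to the T135 mean. T100 replicates 1 to 4 stood at 27.0%, 29.2%, 25.5% and 33.7% of that path, and T120 replicates 1 to 3 at 55.5%, 90.0% and 69.8%. All 3 T120 arrays thus lay beyond all 4 T100 arrays, with T120 replicate 1 nearest to them. The same array stood closest to T100 over the 527 changed probes, with a median shift of 0.95 on the log2 scale and 46.1% of them at least 2-fold away from the T100 mean. T120 replicates 2 and 3 had median shifts of 1.86 and 1.52, with 93.2% and 82.5% of the probes 2-fold away. T120 replicate 1 is the only T120 array on slide 3, so its fetus and its slide cannot be told apart. The path from T85 to T135 also runs along slide, as T85 lay on slides 1 and 2 and T135 on slides 4 and 5.

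Slide could be held constant within slide 3, where T120 replicate 1 stood beside T100 replicates 2 to 4. Of the 527 probes, 518 were measured there, and 233 of them differed at least 2-fold in the direction given by all arrays. Their direction is partly fixed by the choice of the probes, which used the same arrays, and is no sign of stability. The median size of the difference was 1.42 with all arrays, 1.14 with slide as a block over the 31 fetal arrays of both breeds, and 0.93 within slide 3. A block over the Texel arrays gave the slide 3 difference itself, as that slide alone held both stages, and 90 probes then had no estimate.

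Of 8 measured genes of adult fast fibres, 3 rose (MYH1, the glycogen phosphorylase of muscle PYGM and the fast Z-disc protein ACTN3) and 0 fell by limma, against 3.66% changed among all tested probes. The list's median difference was 1.098 on the log2 scale, beside -0.04 for all probes, 0.78 within slide 3 and 0.85 with the slide block over both breeds. The probe A_70_P018506, named by homology as MYH1, the heavy chain of the fast IIx type, read 10.08, 11.74, 9.91 and 11.23 (log2 signal) in the T100 replicates and 13.84, 14.91 and 14.60 in T120. All T120 arrays lay above all T100 arrays, and T100 replicates 2 and 4 were the higher ones at 100 d. The rise on this probe was 3.71 ± 0.56 (SE), at a limma adjusted p of 0.00389, and it measured 2.88 within slide 3. ACTN3 read 15.01, 15.51, 14.99 and 15.32 at 100 d and 16.80, 16.81 and 16.05 at 120 d, again without overlap. Its rise was 1.35 ± 0.27 (SE).

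The 3 probes under the name MYH1 disagreed, and so their 60-base sequences are given. The names of A_70_P018506 and A_70_P050846 come from homology in the study's supplements, while the scanner files give A_70_P041866 an older name of the IIx chain. No run of 12 or more bases was shared between any pair of them, so no base is in capitals. Whether all 3 measure the same heavy chain gene was not tested.
A_70_P018506: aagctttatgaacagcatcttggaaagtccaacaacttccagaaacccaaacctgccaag
A_70_P041866: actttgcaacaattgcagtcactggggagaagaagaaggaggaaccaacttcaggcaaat
A_70_P050846: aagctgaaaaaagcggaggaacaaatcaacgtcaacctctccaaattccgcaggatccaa
A_70_P050846 rose by 2.28 (limma adjusted p 0.0217), from 15.12 ± 0.80 (SD, n = 4) to 17.40 ± 0.25 (SD, n = 3). A_70_P041866 differed by 0.06, with 14.10, 14.71, 13.95 and 13.92 at 100 d and 14.14, 14.07 and 14.47 at 120 d, which overlap. The MYH2 probe, for the IIa chain, behaved like A_70_P041866 with a difference of -0.18. TNNC2 sat at the top of the quantile-normalized scale (18.85 to 18.91 on the 7 arrays), where a change cannot show, though it enters the list median and the summed muscle markers. CASQ1 (0.74) and the thin filament capping protein TMOD4 (0.92) stayed under 2-fold, at limma adjusted p of 0.0424 and 0.0344.

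Slow fibre genes went both ways, all 5 without overlap between the stages, where 19.5% of all probes had none and 3.66% changed. Of the 5 measured, 3 rose (MB, MYH7 and the slow-type light chain MYL6B), 1 fell (ANKRD1) and CRYAB, a small heat shock protein, read -0.90 but did not pass. MB, which stores oxygen, read 11.73, 11.94, 11.92 and 12.13 at 100 d and 13.39, 14.31 and 13.47 at 120 d. The 4 T100 fetuses were close together and all 3 T120 fetuses stood clear of them. The rise of 1.80 ± 0.19 (SE) had a limma adjusted p of 0.000492, a second probe overlapping the first gave 1.75, and within slide 3 the difference was 1.39. MYH7 read 8.40, 7.84, 7.68 and 8.09 at 100 d and 8.98, 9.81 and 10.29 at 120 d, a rise of 1.69 ± 0.40 (SE), with its other probe at 1.38. MYL6B rose by 1.04.

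ANKRD1, an ankyrin repeat protein of the titin spring that responds to stretch and injury, went down. It read 13.67, 16.37, 15.56 and 14.10 at 100 d and 13.63, 12.14 and 11.03 at 120 d. T120 replicate 1 lay only just under the lowest T100 array. The fall of 2.66 on the log2 scale had a limma adjusted p of 0.0357.

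All measured genes of the glycolysis list had values above 0. Of 12 measured genes for glycolysis, glycogen and glucose uptake, 6 rose and 0 fell by limma, all 12 had groups that did not overlap (19.5% of all probes), and the median difference was 1.03, with 0.80 within slide 3. The aldolase ALDOC read 10.58, 11.23, 10.66 and 11.34 at 100 d and 12.17, 12.52 and 12.73 at 120 d. Its rise of 1.52 ± 0.23 (SE) had a limma adjusted p of 0.00413. GAPDH, which oxidises glyceraldehyde phosphate, read 16.19, 16.26, 15.82 and 16.24 at 100 d and 17.08, 17.39 and 17.27 at 120 d, and all 5 of its probes rose, by 1.12 to 1.33. These 2 genes showed tight groups at both stages. SLC2A4, the insulin-responsive glucose carrier, rose by 1.34, PYGM by 1.27, the triose isomerase TPI1 by 1.04 and ALDOA by 1.02. The other 6 (SLC2A1, PFKM, ENO3, HK1, LDHA and FBP2) lay between 0.65 and 1.34 without passing both limits on the brightest probe. Each list gene was counted by that probe. FBP2, though listed here, is described by the study as an enzyme of gluconeogenesis. Further probes of LDHA (1.24) and ENO3 (1.18) did rise. ALDOA was uneven, since 2 of its probes rose (1.02 and 1.35) and the remaining probe read -1.51 at a limma adjusted p of 0.0645.

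Of the genes listed for the citrate cycle and respiratory chain 6 could be measured. Of these, 1 rose and was the only one without overlap, against 3.66% changed and 19.5% without overlap over all probes. COX7A1, the muscle form of a cytochrome oxidase subunit, read 15.50, 15.79, 15.61 and 15.72 at 100 d and 16.77, 17.54 and 16.95 at 120 d. The groups stood apart, with a rise of 1.43 ± 0.25 (SE). The other 5 lay between 0.16 (COX5A) and 0.72 (the uncoupling protein UCP3), and the list's median was 0.59, with 0.35 within slide 3. Outside the list, MDH rose on its 2 probes, by 1.17 and 1.19. Fatty acid oxidation had 0 of 7 genes past the limma test and a median of 0.61, which was 0.12 within slide 3 and 0.30 with the slide block over both breeds, with PDK4, the kinase that holds back glucose oxidation, at 1.26 and a limma adjusted p of 0.186.

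**Figure D2:**
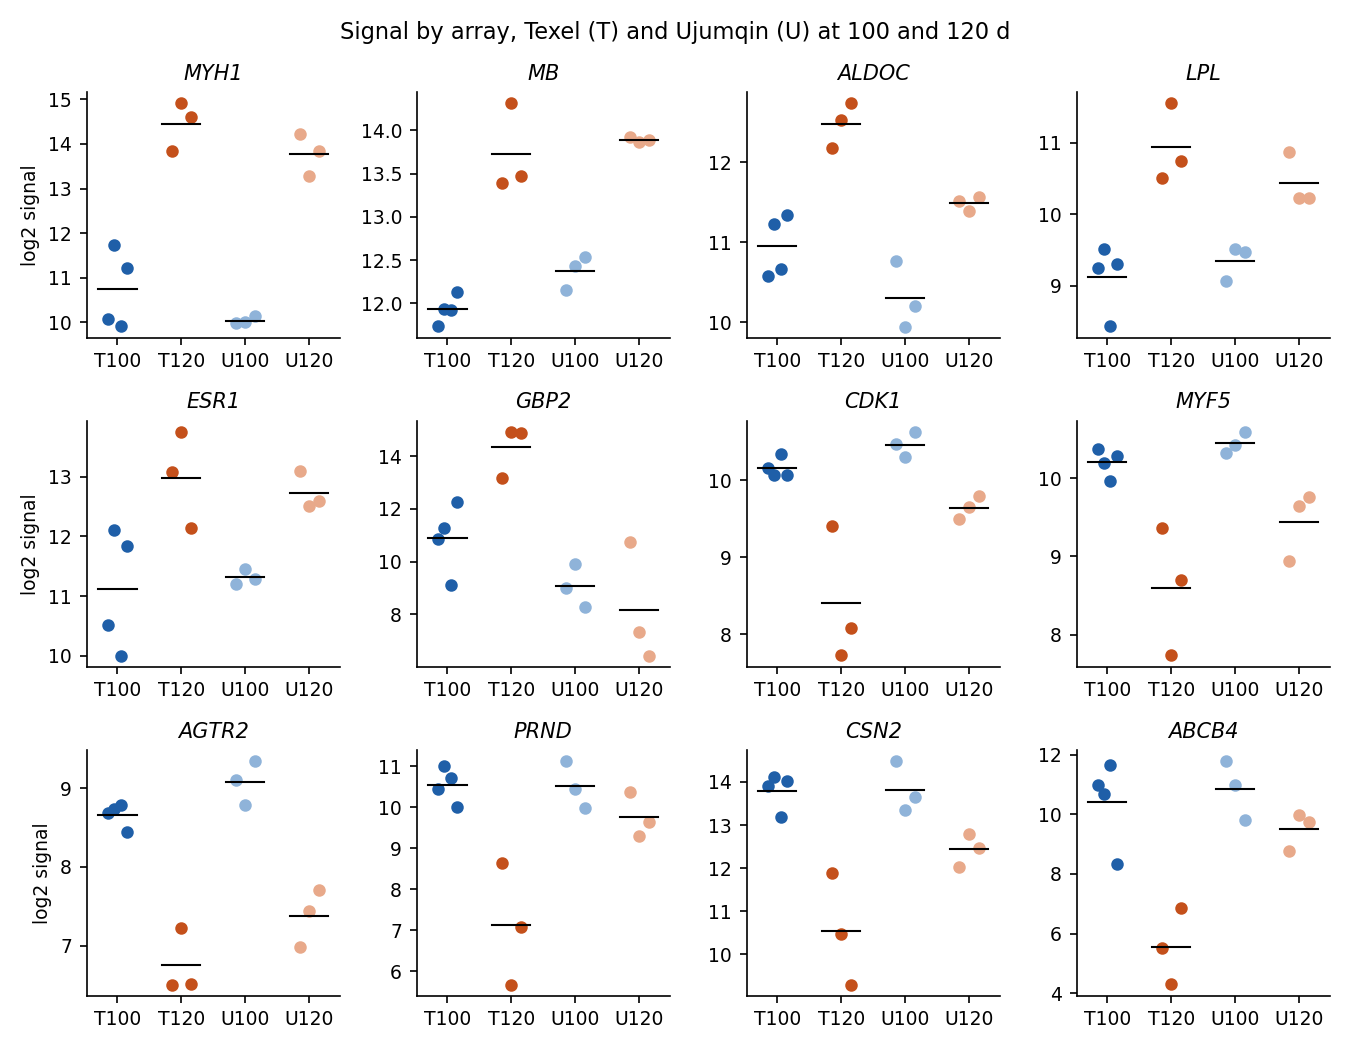
Normalized log2 signal (y axis) of 12 genes on each array of T100, T120, U100 and U120 (x axis), 1 point per array with the group mean as a line. MYH1 lies between 9.91 and 11.74 in T100 and between 13.84 and 14.91 in T120, while CDK1 and MYF5 are lower on all 3 T120 arrays than on the 4 T100 arrays.

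Of 10 measured genes of cell division, 3 fell and 0 rose by limma, and 5 had groups that did not overlap, beside 3.66% and 19.5% of all probes. The median difference was -0.81, but it came to -0.17 within slide 3. CDK1, the kinase that drives mitosis, read 10.15, 10.07, 10.35 and 10.07 at 100 d and 9.40, 7.72 and 8.07 at 120 d. The T100 fetuses were nearly equal, T120 replicate 1 lay a little below them, and T120 replicates 2 and 3 lay far below. CDK1 fell by 1.76 on the log2 scale (limma adjusted p 0.0146), the thymidylate synthase TYMS fell by 1.39 and the cyclin CCNA2 fell by 1.29. The aurora kinases AURKB (-1.15) and AURKA (-0.95) and the replication clamp PCNA (-0.56) did not pass. Outside the list, the spindle pole protein ASPM fell by 2.04 and the PCNA-binding factor KIAA0101 fell by 1.94, both with T120 replicate 1 as the highest T120 array.

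Among the transcription factors that commit and differentiate myoblasts, 4 were measured and 1 fell, where 1.73% of all probes did. MYF5, which acts early in that series, read 10.38, 10.20, 9.96 and 10.29 at 100 d and 9.36, 7.73 and 8.70 at 120 d, all T120 arrays under all T100 arrays. It fell by 1.61 on the log2 scale (limma adjusted p 0.0116), with -0.79 within slide 3. MYOD1, which also marks myoblasts, had groups that did not overlap and a difference of -0.74, under 2-fold. MYOG, which acts later during fusion, differed by 0.03. MYF5, MYOD1 and MYOG were 3 of the 7 listed markers of myogenic precursors, with MYOD1 brightest. Their summed signal was 48220.2, 34286.9, 31818.8 and 35260.9 at 100 d and 25645.3, 21004.2 and 20023.7 at 120 d. Most of each sum was MYOD1, whose T100 mean was 15.09 (log2) beside 10.21 for MYF5 and 9.64 for MYOG. In whole tissue, fewer cells of a type and less RNA in each of those cells cannot be told apart.

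Hormone receptors and steroid enzymes changed in both directions. Of 18 measured genes of glucocorticoid, thyroid and sex hormone signalling, 5 rose and 2 fell, against 1.93% higher and 1.73% lower among all probes, with a median of 0.49. PGR, the progesterone receptor, read 3.83, 3.68, 2.75 and 4.63 at 100 d, when 3 of 4 arrays were well above background, and 5.65, 7.79 and 6.10 at 120 d. It rose at least 6.28-fold, with dim arrays set to a floor. PTGFR, the receptor of prostaglandin F2-alpha, read 5.24, 5.58, 5.27 and 4.98 at 100 d and 7.11, 8.61 and 7.98 at 120 d, with a rise of 2.63 ± 0.34 (SE) at a limma adjusted p of 0.00166. In both receptors the stages stood fully apart. The estrogen receptor ESR1 rose by 1.87, with its highest T100 array at 12.11 and its lowest T120 array at 12.14, and the oxytocin receptor OXTR rose by 1.19.

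The pair of enzymes that switch cortisol on and off moved in opposite directions. HSD11B1, which regenerates active cortisol, read 11.75, 11.36, 11.36 and 11.36 at 100 d and 12.61, 13.38 and 13.10 at 120 d. HSD11B2, which inactivates it, read 10.86, 10.81, 10.30 and 10.02 at 100 d and 9.94, 9.14 and 9.26 at 120 d. HSD11B1 rose by 1.57 ± 0.43 (SE) and HSD11B2 fell by 1.05 on the log2 scale, at limma adjusted p of 0.0444 and 0.0257. Within slide 3 the differences were 1.25 and -0.43. The glucocorticoid receptor NR3C1 differed by 0.46 without passing.

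AGTR2, the angiotensin receptor that is abundant in fetal tissue, gave tight groups. It read 8.69, 8.74, 8.79 and 8.44 at 100 d and 6.51, 7.23 and 6.52 at 120 d. It fell by 1.91 (limma adjusted p 0.00354), its other probe fell by 1.70, and within slide 3 it was -2.14. AGTR1, the receptor of the adult type, differed by -0.03.

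Genes of fat cells, vessels and growth factors changed singly. LPL, the lipase that frees fatty acids from circulating triglyceride, went from a mean of 9.13 ± 0.48 (SD, n = 4) at 100 d to 10.94 ± 0.55 (SD, n = 3) at 120 d. Its highest T100 array (9.51) lay below all 3 T120 arrays, and LPL rose by 1.81 ± 0.32 (SE). Its probes overlap by 20 bases, shown in capitals, and are given because their different remaining bases told the same story, at 1.64 and 1.81.
A_70_P029921: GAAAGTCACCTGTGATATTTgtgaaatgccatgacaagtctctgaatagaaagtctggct
A_70_P029922: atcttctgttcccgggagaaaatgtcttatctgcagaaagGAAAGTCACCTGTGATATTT
Of 9 measured adipocyte genes, LPL and the transcription factor CEBPB (1.82) rose and 0 fell by limma, against 3.66% changed over all probes. The median was 0.30, and 0.62 within slide 3. The adipocyte regulator PPARG read 0.27, the fatty acid binding protein FABP4 1.84 at a limma adjusted p of 0.295, and leptin (LEP) -1.26, just short of the test.

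VEGFA, the main growth factor of vessels, read 11.51, 11.55, 11.14 and 11.10 at 100 d and 12.15, 13.04 and 13.90 at 120 d, which do not overlap. It rose by 1.71 ± 0.33 (SE), and the vasoconstrictor peptide EDN1 rose by 1.67. The receptors KDR (-0.10) and TEK (0.08), which sit on endothelial cells, were close to 0. VEGFA and EDN1 were the 2 of 12 endothelial genes that rose and 0 fell by limma, with a median of 0.03 and the highest value, 1.84, for the adhesion protein SELP, which did not pass. VEGFA was the only one of 18 genes in the list of cytokines and chemokines that passed, beside 3.66% of all probes. Their median of 0.11 turned to -0.01 with 75th percentile scaling, -0.24 within slide 3 and -0.19 with the slide block over both breeds.

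In the insulin-like growth factor family 1 of 11 genes fell and 0 rose by limma, beside 3.66% changed among all probes. The median was -0.27, but 0.06 within slide 3. IGFBP2, a binding protein typical of the fetus, read 14.18, 13.46, 13.77 and 13.74 at 100 d and 13.06, 11.97 and 12.82 at 120 d. All T120 values were below all T100 values, and it fell by 1.17 on the log2 scale. IGF2, the main fetal growth factor of the family, had probes of unequal response: 1 fell by 1.40 (limma adjusted p 0.0327) and the brighter one differed by -0.44. IGF1 differed by 0.13.

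Among matrix genes 1 passed. The interstitial collagenase MMP1 read 9.20, 9.65, 9.32 and 10.06 at 100 d and 6.89, 6.35 and 7.69 at 120 d, far apart, and fell by 2.58 on the log2 scale (limma adjusted p 0.00848; -2.79 within slide 3). It was the 1 of 7 matrix turnover genes that passed, beside 3.66% of all probes, and their median was -0.48. Of 8 collagens and matrix proteins 0 passed the limma test, with a median of -0.45, COL3A1 at -0.77 and COL1A1 at -0.52. In the list of redox and detoxification genes limma counted 2 of 10 as higher and 1, PON1, as lower, again beside 3.66%. ALDH1A1, which makes retinoic acid, rose by 1.62, and the glutathione transferase GSTA1 rose by 1.21. PON1 was not well above background on any T120 array and on 1 of the 4 T100 arrays only, so that its signal shows no fall.

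Immune genes spread widely within both groups. Of 10 measured interferon-stimulated genes 3 rose and 0 fell by limma (all probes 3.66%), but only 2 had groups that did not overlap (all probes 19.5%). The median of 1.79 was the highest of the lists in the main fit, but within slide 3 it was 0.53. With 75th percentile scaling it was 1.70, below the 1.78 of antimicrobial peptides. GBP2, an interferon-induced GTPase, read 10.85, 11.28, 9.10 and 12.28 at 100 d and 13.19, 14.92 and 14.90 at 120 d. All T120 arrays were above T100 replicate 4, the highest at 100 d, and GBP2 rose by 3.46 ± 0.72 (SE). The interferon regulatory factor IRF1 rose by 2.15, with T120 replicate 1 (7.40) under T100 replicate 4 (7.55), and the GTPase GBP4, well above background on 2 of the 4 T100 arrays, rose at least 3.25-fold. ISG15, a ubiquitin-like protein, ran from 9.08 to 13.65 at 100 d and up to 15.20 at 120 d, with overlap, with a difference of 1.62 at a limma adjusted p of 0.309. As medians over the list, each array against the T100 mean, the T100 replicates read -0.54, 0.45, -1.59 and 1.54 and those of T120 read 0.72, 3.49 and 1.97.

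Antimicrobial peptides of neutrophils stood high on 1 T100 array as well as on those of T120. Of 8 measured, 0 passed the limma test, which 3.66% of all probes passed. The median difference was 1.73, and 2.34 within slide 3. S100A9, part of the neutrophil protein calprotectin, read 10.19, 9.87, 10.07 and 13.80 at 100 d and 13.00, 13.57 and 12.66 at 120 d. T100 replicate 4 was thus the highest array of all 7. The list medians against the T100 mean were -0.80, -0.77, -1.39 and 3.05 at 100 d and 2.64, 1.13 and 1.64 at 120 d. Of 18 leukocyte genes 0 passed the limma test, again beside 3.66% of all probes. Their median was 0.72, and -0.27 within slide 3. CXCR4, a chemokine receptor, had the lowest value of these 18, at -0.92 with a limma adjusted p of 0.0266 and groups that did not overlap, but stayed under 2-fold.

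Leukocyte markers spread widely too. Of 16 listed markers, 9 were measured, with the integrin ITGB2 brightest and CD4 not well above background on any of the 7 arrays. Their summed signal was 1843.98, 1372.56, 1621.97 and 5889.76 at 100 d and 1673.03, 8237.35 and 9722.41 at 120 d. T100 replicate 4 and T120 replicates 2 and 3 were high, and T120 replicate 1 was as low as the other T100 fetuses. Their part in the changes of immune genes was not tested.

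**Figure D3:**
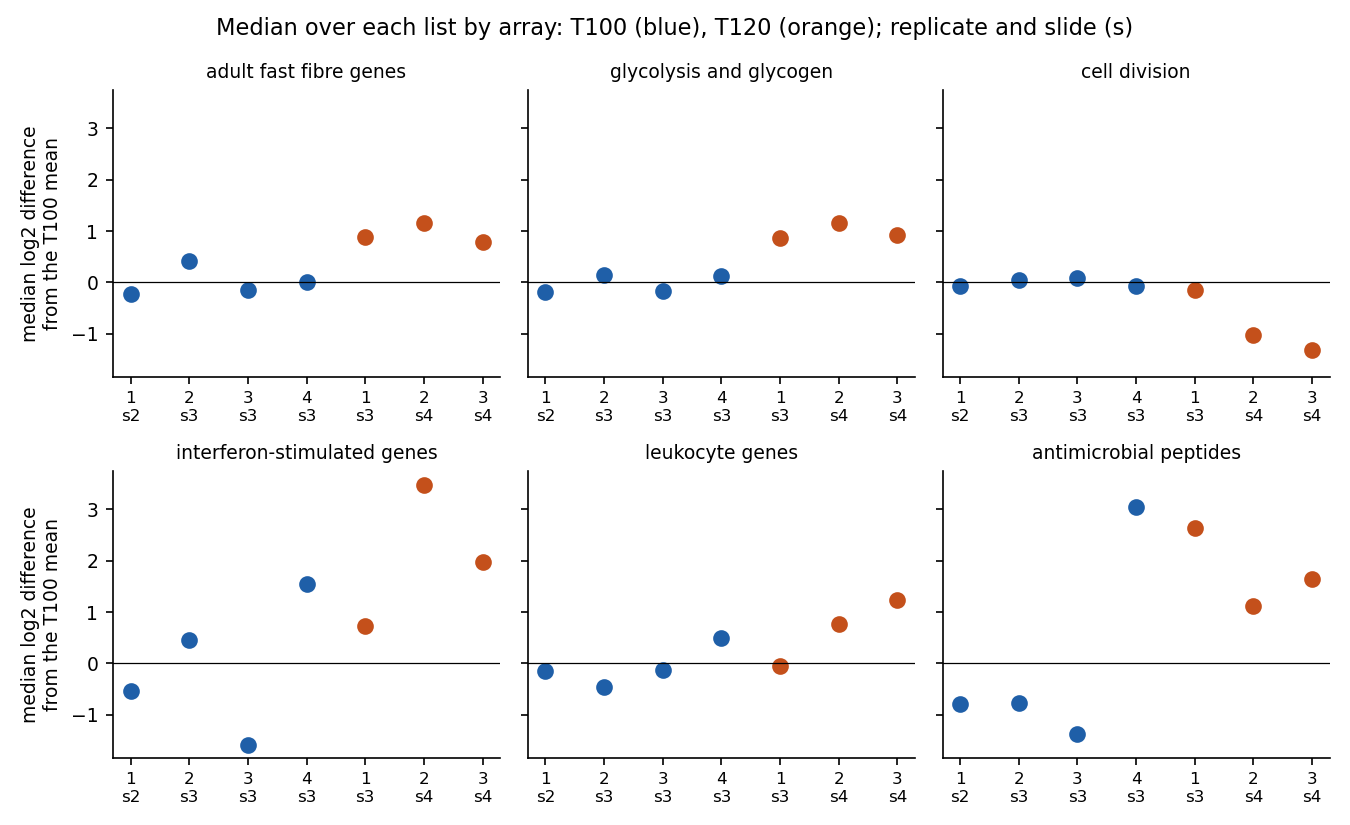
Median over the genes of 6 lists of the log2 difference from the T100 mean (y axis) on each of the 7 arrays (x axis, replicate and slide), T100 in blue and T120 in orange. Fast fibre and glycolysis genes are higher on all 3 T120 arrays, cell division is near T100 on T120 replicate 1 (-0.15) and lower on the other 2 (-1.02 and -1.32), and antimicrobial peptides are high on T100 replicate 4 (3.05).

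Markers of other cell types gave these levels. Of 10 adipocyte markers 8 were measured, with SCD brightest, LPL the 1 that rose, and sums of 12020.5, 13400.1, 10202.8 and 12903.7 at 100 d and 18753, 20643 and 13216.3 at 120 d. Red cell markers (HBB, the brighter, and AHSP; 2 of 8) summed to between 77408.4 and 99234.3 at 100 d and to 126665, 216360 and 38326.6 at 120 d, so that the T120 arrays bracketed those of T100. Connective tissue markers (5 of 11, VIM brightest) ran from 452508 to 500423 at 100 d and read 405081, 274835 and 498368 at 120 d. Endothelial markers (KDR, the brighter, and TEK; 2 of 6) ran from 534.766 to 649.679 and from 470.055 to 621.917. In cartilage and bone 3 of 6 were measured, BGLAP brightest, with 337.076 to 432.211 at 100 d and 188.293 to 408.244 at 120 d. None of the markers in these last 4 sets passed the test, beside 3.66% of all probes.

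The nerve and epithelial sets rested on 1 gene each. STMN2, a neuronal protein and 1 of 8 nerve and Schwann cell markers, had signals of 191, 255, 137 and 302 at 100 d and 160, 96.1 and 16.7 at 120 d and did not pass. EPCAM, an adhesion protein of epithelia and 1 of 5 epithelial markers, read 3.52, 3.79, 5.03 and 3.80 on the log2 scale at 100 d and 1.48, 1.57 and 2.45 at 120 d. It was not well above background on any T120 array, and was at least 1.64-fold higher at 100 d, with a limma adjusted p of 0.00566. For such probes the bound sets the mean of the bright group against a floor on the dim arrays. That floor is the lowest signal that was well above background or the probe's own, whichever was higher. Their p-values belong to the fitted difference and not to the bound. The part of other cell types in the changes of muscle genes was not tested.

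Many lists had no gene past the test, which 3.66% of all probes passed. At that share few genes would pass in lists of this size. Of 21 ribosomal protein genes, 24 of the transforming growth factor beta family, 11 of ubiquitin, proteasome and calpain, 9 of fat and sterol synthesis, 8 translation factors and 5 chaperones, 0 passed limma's adjusted p with 2-fold. Their medians were -0.09, -0.33, -0.20, -0.49, -0.02 and -0.54. With 75th percentile scaling the ribosomal median became 0.23, the translation median 0.05 and the ubiquitin median 0.03. Within slide 3 the median of fat and sterol synthesis turned to 0.13. EEF1A2, the elongation factor of adult muscle, was the highest translation factor at 1.16 (limma adjusted p 0.0761), with a dimmer probe that rose by 1.70, and INHBA, an activin subunit, was the lowest of the transforming growth factor beta family at -1.11. Further sets were small: filament and Z-disc proteins (4 genes, median -0.13), haemoglobin and red cell genes (4, 0.73), embryonic and non-muscle forms (3, 0.06), cell cycle exit (3, -0.26), calcium handling (2, 0.38), nerve genes (2, -0.96) and the histocompatibility complex (1, 0.75), and 0 of these genes passed by limma. Within slide 3 the filament median turned to 0.31 and the histocompatibility value to -1.44. In all, 266 of the 799 genes in the 32 lists had a tested probe, spread over 31 lists.

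**Figure D4:**
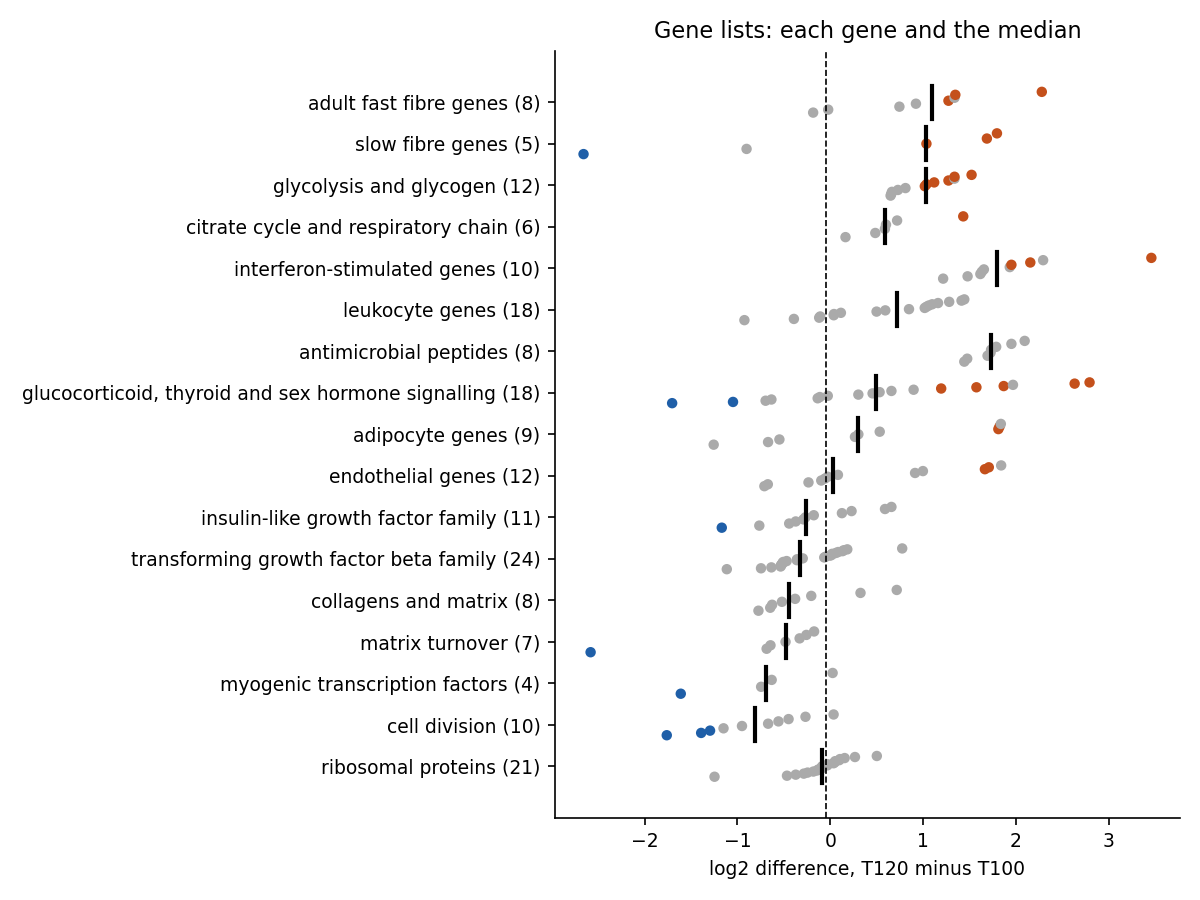
Log2 difference between T120 and T100 (x axis) of each measured gene in 17 lists (y axis, number of genes in brackets), with changed genes in orange or blue, others in grey, the list median as a black bar and the median of all tested probes (-0.04) as a dashed line. All 12 genes of the glycolysis list lie above 0, and the medians of cell division (-0.81) and myogenic factors (-0.69) lie furthest below it.

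Beyond the lists, the largest rises among named genes included several of little-known role in muscle. The acute phase protein serum amyloid A3.2 (LOC100135684) read 5.57, 5.43, 5.54 and 6.90 at 100 d and 7.12, 13.19 and 10.62 at 120 d. T120 replicate 1 stood near T100 replicate 4, and the other 2 T120 fetuses stood far above. Its rise of 4.45 ± 1.16 (SE) measured 1.16 within slide 3. TRAK1, an adaptor that moves mitochondria along microtubules, read 4.42, 3.95, 4.08 and 4.51 at 100 d and 8.61, 7.36 and 9.54 at 120 d. The T100 fetuses lay close together and far below all 3 T120 fetuses, and it rose by 4.26 ± 1.07 (SE). At earlier Texel stages the probe spread widely, at 4.73 ± 2.63 (SD, n = 3) at 70 d and 4.56 ± 2.23 (SD, n = 3) in T85. In T135 it read 8.47 ± 0.52 (SD, n = 3). AKR1C2, of the aldo-keto reductases that act on steroids and prostaglandins, was not well above background on any T100 array and read 4.59, 4.62 and 5.24 at 120 d. It was at least 3.78-fold higher at 120 d, and had the lowest limma adjusted p of all probes, 3.07e-06. That p-value belongs to the fitted difference of 3.23, which uses the dim T100 values of 1.40 to 1.82, and not to the bound.

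Others of the 12 largest named rises were the prostaglandin E receptor form EP4d (at least 8.33-fold, 3 of 4 T100 arrays well above background, with T120 replicate 1 at 5.16 beside T100 replicate 1 at 5.00 and a slide 3 difference of 1.77), the mast cell receptor chain FCER1A (2.91), the urea transporter UT-A (at least 5.01-fold, dim on all 4 T100 arrays and well above background on 2 of 3 T120 arrays, of which T120 replicate 1 at 6.90 was the highest) and the growth factor TGFA (at least 2.52-fold). The bound of UT-A leaned on T120 replicate 1, as the other T120 arrays read 4.14 and 4.65. Its fitted difference of 2.63 was 1.80 without that array. TGFA was fitted without T120 replicate 1, an outlier spot there. The unnamed probes A_70_P016751 (at least 136-fold) and A_70_P053486 (at least 35.4-fold) also rose, each well above background on 2 of the 4 T100 arrays. A_70_P016751 read 9.32, 1.34, 4.80 and 1.41 at 100 d and 9.95, 12.27 and 13.47 at 120 d. At 100 d these fetuses differed among themselves by more than the gap to the nearest T120 fetus.

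IGSF1, a membrane glycoprotein that the scanner files call inhibin binding protein, rose on 1 probe only. A_70_P002857 read 4.75, 5.47, 4.04 and 5.48 at 100 d and 8.37, 9.84 and 8.76 at 120 d, a rise of 4.05 ± 0.97 (SE). A_70_P002856 was not well above background on any of the 7 arrays and differed by -0.03. The sequences are given since 40 of the 60 bases, in capitals, are shared by both.
A_70_P002856: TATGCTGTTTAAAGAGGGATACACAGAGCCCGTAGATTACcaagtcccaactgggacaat
A_70_P002857: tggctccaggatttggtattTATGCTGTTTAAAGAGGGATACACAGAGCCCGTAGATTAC

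Large falls were also found outside the lists. The milk protein gene CSN2 (beta-casein) read 13.90, 14.11, 13.18 and 14.01 at 100 d and 11.88, 10.47 and 9.30 at 120 d. It fell by 3.25 on the log2 scale, with a limma adjusted p of 0.0017 and -1.88 within slide 3. ABCB4, which carries phospholipid across membranes, read 10.98, 10.66, 11.66 and 8.34 at 100 d and 5.53, 4.29 and 6.86 at 120 d and fell by 4.85. PRND, the doppel relative of the prion protein, read 10.43, 11.01, 10.71 and 10.01 at 100 d and 8.64, 5.68 and 7.07 at 120 d. It fell by 3.41, and its other probe fell by 2.91. In all 3 genes every T120 fetus lay below every T100 fetus.

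KRT27, a keratin of hair follicles, read 9.61, 9.18, 9.69 and 9.29 at 100 d and 7.22, 2.67 and 3.08 at 120 d, when 1 of 3 arrays was well above background. It was at least 26.2-fold higher at 100 d, at a limma adjusted p of 0.0429, and measured -2.17 within slide 3. BCAT1, which starts the breakdown of branched-chain amino acids, fell by 3.08, with T120 replicate 1 at 9.70 and the other T120 fetuses at 6.94 and 6.13. The glutamate receptor GRM8 was at least 2.23-fold higher at 100 d. The 2 unnamed probes with the largest falls were A_70_P021871, which fell by 3.75, and A_70_P069231, which was at least 3.71-fold higher at 100 d.

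Of 43 genes that the study names for these stages or measured by PCR, 42 had a tested probe. Limma counted 8 of the probes taken for them as higher and 5 as lower at 120 d, beside 1.93% and 1.73% of all probes. The lower ones included PON1, whose signal showed no fall, and further probes of some of these genes also changed. Since those genes were chosen on the same arrays, these counts are not independent evidence of a direction. The higher ones not yet described were NDRG1 (1.33), a stress-responsive gene, and a further CEBPB probe, which rose by 1.65 and was fitted without T120 replicate 3. That probe read 8.17 and 6.91 in T120 replicates 1 and 2, and its difference was 1.02 without T120 replicate 1. Large differences that did not pass were those of IDI1, a sterol synthesis enzyme (-2.16, limma adjusted p 0.0648), SNX10, a sorting nexin fitted without T120 replicate 1 (2.28, 0.0555), the glutathione transferase GSTT1 (well above background on 1 of 4 T100 arrays, adjusted p 0.0911) and the pyrophosphatase PPA1 (2.14, 0.0998). XIST and the Y-linked USP9Y followed the labelled sex. The XIST probe A_70_P035741 read 7.64, 7.61 and 7.69 in the 3 T100 females and 1.42 in the T100 male, and the USP9Y probe read 12.97 in that male and 12.82, 13.09 and 12.77 in T120. Sex itself passed the limma test for 6 probes over the Texel fetal arrays, and 0 of these were among the 527. Such probes differ within T100, which held both sexes, and so could hardly pass the test of stage. USP9Y, for instance, differed by 7.45 at a limma adjusted p of 0.23. The count of 0 therefore says nothing about the part of sex in the 527.

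The Ujumqin fetuses showed which changes of the interval recurred in a breed of other muscling. There 171 of the 14385 probes changed (1.19%), 111 higher and 60 lower at 120 d. Both breeds changed on 94 probes, all 94 in 1 direction, which is 17.8% of the Texel and 55.0% of the Ujumqin probes. MYH1 (A_70_P018506) went from 10.04 ± 0.08 (SD, n = 3) in U100 to 14.21, 13.29 and 13.85 in U120, a rise of 3.75 beside the Texel rise of 3.71. The list medians in Ujumqin were 1.32 for fast fibre, 0.63 for slow fibre, 0.94 for glycolysis, -0.61 for cell division and -0.58 for myogenic factor genes. Interferon genes had a median of 0.78, leukocyte genes 0.04 and antimicrobial peptides 1.93, and list medians were not tested between breeds. GBP2 differed by -0.89 in Ujumqin, but the breed difference of its change had a limma adjusted p of 0.334. TRAK1 went from 7.23 ± 0.88 (SD, n = 3) in U100 to 8.49, 1.51 and 1.91 in U120. It was well above background on 1 of 3 U120 arrays only, and its breed difference did not pass either.

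The breed difference of the change, tested in limma over all 31 fetal arrays, passed for 2 probes (0.0139%), and 448 passed at an unadjusted p. MAP3K14, a kinase that activates NF-kappaB, read 7.75, 7.77, 7.78 and 7.28 in T100 and 7.63, 7.91 and 7.57 in T120. The Ujumqin values were 6.99, 6.06 and 7.06 at 100 d and 9.04, 9.17 and 9.25 at 120 d. Texel was flat at 0.06 where Ujumqin rose by 2.45, and the difference of -2.39 had a limma adjusted p of 0.0328. The unnamed probe A_70_P056166 fell by 1.06 in Texel and read 0.97 in Ujumqin, a difference of -2.03 at 0.00928. It was the 1 probe of the 527 whose breed difference passed. With slide as a fixed block 0 probes passed by limma (321 unadjusted), and with sex as a covariate 1 of these 2 still passed. Without T120 replicate 1 the count was 204, and at 120 d all Texel fetuses were male and all Ujumqin fetuses female, so that breed and sex cannot be told apart there.

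Values at the neighbouring Texel stages place the interval, although those contrasts share the T100 or the T120 arrays. The mean of MYH1 (A_70_P018506) was 8.75 in T85, 10.74 in T100, 14.45 in T120 and 15.44 in T135, with differences of 1.99 before and 0.99 after the interval, neither past the limma test. PGR, not well above background in T85, was at 1.51, 3.72, 6.51 and 9.34 at the same 4 stages. CSN2 was at 14.10, 13.80, 10.55 and 10.51, so that its difference after 120 d was -0.04. AGTR2 was at 9.37, 8.66, 6.75 and 5.82, and GBP2 at 8.85, 10.88, 14.34 and 12.95.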

How the data were processed

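Each array was read from its scanner file, which per the submitters' processing notes was made with Agilent Feature Extraction 10.5. The authors deposited 1 such file per array, with the processed signal as intensity in arbitrary units, and a table of log2 values made by quantile normalization. Every column of that deposited log2 table has the median 8.61456, and it served as an alternative only.

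Control and outlier spots were left out, spots of a probe averaged, and the processed signals of the 31 fetal arrays quantile normalized, floored at 1 and taken to log2. Of 15008 probes, 14385 that were well above background on at least 1 fetal array were tested. T120 was compared with T100 in limma 3.58.1 (R 4.3.3) over the 16 Texel fetal arrays in 5 stage groups, with the Benjamini-Hochberg adjustment. A probe changed when its adjusted p was under 0.05 and its difference at least 2-fold. The 15 Ujumqin fetal arrays were fitted in the same way, and the breed difference of the change over 31 arrays in 10 groups of breed and stage. Tables and figures used matplotlib 3.10.9, scipy 1.17.1, pandas 2.3.3 and numpy 2.4.6 under Python 3.11.15, and the fits were tested on simulated data.

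Of all probes, 1872 had a gene name: 662 through RefSeq accessions, 795 from the scanner files, 148 through gene IDs and 267 from the study's supplements by homology. Genes were named when among the 12 largest changed named genes or the 2 largest unnamed probes of a direction, when past the breed difference, when named by the study, or as members of gene lists. In lists and marker sets each gene counted by its brightest probe. The members and the lists were chosen with earlier results of these data known. Alternatives changed the normalization, background, filter, floor, test, threshold, arrays, slide and sex. The 9 arrays after birth were left out. Results for 1 gene of the paper were left out of this report.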

Additional observations from a re-analysis of the deposited data

Results flagged for a closer look

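Single T100 fetuses far from the other 3 were sought by Dixon's ratio of the gap to the range, in 77 sets of 4 values. By chance about 1 set in 20 is flagged, and 11 of the 77 were (14.3%). T100 replicate 4 stood out for serum amyloid A3.2 (LOC100135684, 6.90, above the others), IDI1 (9.27, below), MAP3K14 (7.28, below) and the summed signal of the leukocyte markers (5889.76, above). T100 replicate 3, the only male of its group, stood out for XIST (1.42, below) and USP9Y (12.97, above), as well as for S100A11 (6.66) and the summed epithelial signal, which is EPCAM alone (32.7, above). T100 replicate 2 was flagged for LEF1 (4.45) and TMOD4 (14.02, above), and T100 replicate 1 for TXNRD1 (4.72). The ratio was applied to sets of 4 only, so T120 was not searched.

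A difference between the breeds flagged MAP3K14, with a breed difference of -2.39 in the change from 100 to 120 d, and the unnamed probe A_70_P056166, with -2.03. Both passed the limma test over all fetal arrays. No explanation of these values was tested.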

How the results depend on the processing

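The 527 probes (278 higher, 249 lower) kept within 1.5 times of their number with 75th percentile scaling (579), quantiles over the Texel arrays (526), the deposited table (534), no filter (524), the stricter filter (549), a floor of 16 (465), outlier spots kept (516), a trend (580) and slide as a random block (557). Normexp background correction gave 330 (175 higher, 155 lower), and array weights 202 (111 and 91). The 7 compared arrays alone gave 62 (35 and 27), in a fit with fewer degrees of freedom and its own estimate of the spread. All 31 fetal arrays gave 794 (427 and 367). With slide as a fixed block 31 probes passed (28 and 3), with that block over all 31 arrays 107 (76 and 31), and within slide 3 alone 2 (1 and 1), where T120 has a single array. Sex as a covariate left 316 (163 and 153), and 799 over all 31 arrays (397 and 402). Male fetuses alone left 14 (6 and 8), with a single T100 male. By limma's unadjusted p 1000 passed (538 and 462), and by adjusted p at any size 938 (449 and 489). The methods' t-test with an adjusted p under 0.05, stricter than the limit the study set, passed 0 probes (0 higher, 0 lower), and 360 unadjusted (192 and 168). The cause of these shifts was not tested.

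Leaving out single arrays gave 174 to 1394 probes. Without T100 replicate 1 there were 279 (154 and 125), without T100 replicate 2 337 (187 and 150), without T100 replicate 3 251 (142 and 109), without T120 replicate 1 1394 (693 and 701) and without T120 replicate 2 174 (106 and 68). T120 replicate 3 left 389 (217 and 172) and T100 replicate 4 475 (279 and 196). With the replicate block 432 passed (250 and 182). Equal replicate numbers only share a number: their arrays' deviations correlated at -0.03, -0.01 and -0.05, and no cause of the lost probes was tested.

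The 171 Ujumqin probes became 94 with the compared arrays alone, 120 with normexp, 382 with array weights, 78 with slide as a fixed block, 85 with it over all 31 arrays, 69 with sex, 79 with sex over all 31 arrays and 153 with the replicate block. By limma's unadjusted p they were 417, and by the methods' t-test 0 adjusted and 243 unadjusted. Leaving out single arrays gave 78 (U100 replicate 1), 91 (U100 replicate 3), 88 (U120 replicate 2), 93 (U120 replicate 3), 188 and 199. For the breed difference, 2 probes became 0 by limma with the compared arrays alone (377 unadjusted), 0 with array weights (437) and 0 with slide as a fixed block (321), 2 with the replicate block, 2 with sex as a covariate (1 of them among the first 2), and 448 by unadjusted p over all arrays. Without T120 replicate 1 it was 204, without T120 replicate 2 5, without U100 replicate 1 5, without U120 replicate 1 4, without T100 replicate 4 or U100 replicate 3 3 each, and 1 without T100 replicate 1, 2 or 3, U100 replicate 2 or U120 replicate 3.

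Of the 306 genes and probes named or listed, 63 had changed. Over all their 1696 settings 1163 kept direction and test, 533 lost the test and 0 reversed, and 0 of the 63 passed under all settings. Gene list medians moved most with slide as a fixed block and within slide 3, 15 of 31 each. Probes near background, such as those of PON1, EPCAM and GRM8, give bounds or no fold.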

Other observations

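Some further changed genes, chosen after their values were seen, are given here. PGFS, a prostaglandin F synthase related to AKR1C2, read 7.97, 8.18, 8.14 and 8.47 at 100 d and 10.66, 10.72 and 10.32 at 120 d. Both groups were narrow, and the rise of 2.38 ± 0.18 (SE) had a limma adjusted p of 2.04e-05, beside 2.03 in Ujumqin and 2.40 within slide 3. KLF9, a transcription factor that glucocorticoid and thyroid hormone induce, read 8.54, 9.38, 9.39 and 9.35 at 100 d and 10.86, 11.60 and 11.15 at 120 d, again apart. It rose by 2.04 ± 0.28 (SE), and by limma DDIT4 (1.32) and TXNIP (1.16), both responsive to stress and nutrients, rose as well. The mast cell tryptase TPSB2 rose by 2.15 and the water channel AQP3 by 1.96.

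BARX2, a homeobox factor of muscle precursors, read 13.30, 12.98, 13.44 and 12.71 at 100 d and 11.85, 10.87 and 11.39 at 120 d. All T120 fetuses lay below all T100 fetuses, and it fell by 1.73 on the log2 scale (limma adjusted p 0.0017), beside -0.47 in Ujumqin. The breed difference of its change, -1.26, did not pass (limma adjusted p 0.247). BAX, a protein of the mitochondrial membrane, fell by 1.65, with T120 replicate 1 closest to T100.

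With 4 and 3 arrays, unequal sexes, fewer ewes than T100 fetuses, and slides that partly follow stage, single estimates are uncertain, and T120 replicate 1 lowers the number of changed probes. Most probes had no gene name, many names rest on homology, and lists held few measured genes. Whole muscle mixes cell types, and levels of different probes cannot be compared.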
